A study of Mus musculus with 14 samples.

Results

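DMC1 peaks in and around the chemosensory receptor genes of the mouse were counted and ranked in testes with and without HELLS. A peak was a member if its center, the midpoint of the called interval, lay inside or within 20 kb of an autosomal gene of GENCODE M21 whose symbol begins with *Olfr*, *Vmn1r*, *Vmn2r* or *Taar*. These 1976 genes merged into 359 regions that held 50.5 Mb of assembled sequence, which was 2.11% of the 2396 assembled autosomal Mb. The members were 88 of the 10397 autosomal peaks of *Hells* CTRL mice and 98 of the 16321 autosomal peaks of *Hells* cKO mice. The choice of members used gene positions and no measured value.

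The peaks came from chromatin immunoprecipitation of DMC1 followed by sequencing of single-stranded DNA (DMC1 ChIP-SSDS) on whole testes of adult mice. *Hells* CTRL mice were *Hells* fl/Δ, that is, with a floxed and a deleted *Hells* allele, and were 5 weeks old. *Hells* cKO mice were *Hells* fl/Δ with the *Stra8*-iCre transgene, which expresses Cre recombinase in the male germ line around the entry into meiosis, and were 9 weeks old. Both groups thus carried 1 deleted allele in all cells, and somatic cells and germ cells that escaped recombination kept HELLS in the cKO testes. Each genotype had 2 replicates, of 2 testes each for *Hells* CTRL and 3 testes each for *Hells* cKO, but they were merged into 1 peak list per genotype. No test across mice was therefore possible, genotype and age cannot be told apart, and all intervals below are 95% intervals that cover counting error only.

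Olfactory receptors (*Olfr*) are the odorant receptors of the main olfactory epithelium, the *Vmn1r* and *Vmn2r* genes encode the receptors of vomeronasal sensory neurons that detect pheromones and related cues, and the trace amine-associated receptors (*Taar*) detect volatile amines. These families grew by tandem duplication, so that many members and pseudogenes lie side by side in large clusters that are mostly silent outside sensory neurons. In mouse meiosis, PRDM9 binds DNA sequence motifs and trimethylates the neighbouring histones, the chromatin remodeler HELLS acts with PRDM9 to open these sites, and the DNA breaks formed there are resected to single-stranded ends that the recombinase DMC1 coats. Where PRDM9 does not act, breaks are known to form at promoters and other sites that carry histone H3 lysine 4 trimethylation, many of which are CpG-rich.

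The sequences at the peak centers are shown first, because the 2 lists differed in them. Each is 201 bases of GRCm38 around the center, on the + strand. The peaks are the strongest members whose windows held no annotated untranslated region, and for *Hells* CTRL the next such peak with a word. In the *Hells* CTRL sequences, capitals mark any of 20 words of 8 bases that were most enriched at the centers of *Hells* CTRL peaks outside the receptor regions, read on both strands and allowed to overlap. In order of enrichment the words were GGTGCTAC, GATGCTAC, GCAGCACC, GCTACTAC, GATGCTGC, GATACTAC, GCAGTAGC, GGTACTAC, GCTGCTAC, GAAGCTAC, GCAGCAGC, AGTAGCAC, GGTGTTAC, GCTGCCAC, GATACTGC, CTACTGCC, GGGTAGTA, CTACTACC, AGCAGCAT and AGCTACTG, of which several are shifted copies of each other.
Olfr267 side, chr4:58791683-58791883: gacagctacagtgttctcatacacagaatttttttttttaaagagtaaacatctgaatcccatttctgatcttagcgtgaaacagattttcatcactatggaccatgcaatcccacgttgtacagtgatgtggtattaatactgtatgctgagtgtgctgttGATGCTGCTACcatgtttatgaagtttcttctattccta
Vmn1r73 intron, chr7:11734465-11734665: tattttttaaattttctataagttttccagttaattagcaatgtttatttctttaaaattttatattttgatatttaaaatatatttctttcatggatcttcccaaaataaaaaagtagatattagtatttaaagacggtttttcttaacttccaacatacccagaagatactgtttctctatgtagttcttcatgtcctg
Olfr24 side, chr9:18764197-18764397: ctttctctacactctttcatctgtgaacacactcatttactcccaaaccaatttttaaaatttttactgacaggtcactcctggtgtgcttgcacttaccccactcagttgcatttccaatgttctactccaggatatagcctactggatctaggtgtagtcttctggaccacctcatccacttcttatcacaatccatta
Vmn1r90 side, chr7:14580706-14580906: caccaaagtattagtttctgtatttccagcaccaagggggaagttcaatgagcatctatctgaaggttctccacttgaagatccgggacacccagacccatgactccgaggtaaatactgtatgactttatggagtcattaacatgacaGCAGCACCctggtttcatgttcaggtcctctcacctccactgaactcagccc

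In the *Hells* cKO sequences, capitals mark every CpG dinucleotide. The first 3 are the strongest members without an untranslated region in the window, and the last 2 are centered in coding exons of olfactory receptor genes.
Vmn2r-ps159 side, chr4:156314203-156314403: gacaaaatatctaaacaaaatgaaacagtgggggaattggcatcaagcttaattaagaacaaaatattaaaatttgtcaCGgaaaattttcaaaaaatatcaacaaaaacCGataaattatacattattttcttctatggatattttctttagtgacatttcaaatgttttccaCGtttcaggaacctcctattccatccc
Olfr1421-ps1 side, chr19:12010700-12010900: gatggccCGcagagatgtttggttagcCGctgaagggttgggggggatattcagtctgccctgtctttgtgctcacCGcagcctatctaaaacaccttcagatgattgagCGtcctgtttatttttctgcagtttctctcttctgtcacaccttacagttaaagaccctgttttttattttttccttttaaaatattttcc
Patl1 intron near Olfr1420, chr19:11912641-11912841: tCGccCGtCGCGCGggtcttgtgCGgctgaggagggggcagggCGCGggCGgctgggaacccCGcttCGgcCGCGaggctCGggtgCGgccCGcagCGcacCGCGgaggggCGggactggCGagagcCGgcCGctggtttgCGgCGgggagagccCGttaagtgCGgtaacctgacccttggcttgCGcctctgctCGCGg
Olfr281 coding exon, chr15:98456668-98456868: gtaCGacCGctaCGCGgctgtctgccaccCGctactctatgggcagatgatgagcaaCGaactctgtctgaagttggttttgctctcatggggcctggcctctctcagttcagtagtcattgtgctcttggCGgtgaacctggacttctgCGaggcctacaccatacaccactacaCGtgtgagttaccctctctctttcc
Olfr279 coding exon, chr15:98498011-98498211: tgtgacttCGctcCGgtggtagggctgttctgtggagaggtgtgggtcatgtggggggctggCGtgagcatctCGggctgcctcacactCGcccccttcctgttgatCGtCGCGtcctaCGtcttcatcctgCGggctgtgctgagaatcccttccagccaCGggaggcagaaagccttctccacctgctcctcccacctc

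To ask whether meiotic breaks avoid or favour the receptor clusters, peak density was compared with that of all other autosomal sequence in the same list. Both lists held fewer DMC1 peaks in receptor regions than elsewhere. *Hells* CTRL had 1.74 peak centers per assembled Mb (1.40 to 2.15) in receptor regions against 4.40 (4.31 to 4.48) in other sequence, a ratio of 0.397 (0.318 to 0.489). *Hells* cKO had 1.94 per Mb (1.58 to 2.37) against 6.92 (6.81 to 7.02), a ratio of 0.281 (0.228 to 0.342). The cKO ratio was thus 0.708 times the CTRL ratio, with an interval of 0.525 to 0.956 that lay below 1. The density inside receptor regions did not differ between the lists beyond counting error, while the density outside was higher in the cKO list. The number of peaks in a list also depends on its depth, which is unknown here, and on reproducibility between its replicates. The ratios within a list are therefore the measure compared.

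The base composition of the regions moved with this difference. Receptor regions had a GC content of 38.9% against 42% elsewhere, and 5.76 CpG per kb against 8.57. Other sequence weighted to the GC content of the receptor windows, in 100-kb windows and 1% classes, had 3.68 *Hells* CTRL peaks and 4.13 *Hells* cKO peaks per Mb. At that composition 186 CTRL peaks would have fallen in the receptor regions where 88 did, a ratio of 0.473 (0.380 to 0.583), and 208 cKO peaks where 98 did, a ratio of 0.470 (0.382 to 0.573). The cKO ratio was then 0.993 times the CTRL ratio (0.737 to 1.34), so that the overall difference between the lists was not seen at equal GC content, whereas the deficit of both lists remained.

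More of the receptor sequence was repeated in the genome, and the lists rest on uniquely mapped reads. Of the 50-base words sampled in receptor regions, 73.9% occurred once in the assembled genome, against 89.7% elsewhere. The share was 82.7% around *Olfr* genes, 59.8% around *Vmn1r* genes, 62.4% around *Vmn2r* genes and 91% around *Taar* genes. Per uniquely mapping Mb, *Hells* CTRL had 2.36 peaks in receptor regions against 4.90 elsewhere, and *Hells* cKO had 2.63 against 7.71. With both the mapping and the GC content taken into account, the ratios were 0.560 for *Hells* CTRL and 0.558 for *Hells* cKO. Of the members, 25% of the CTRL peaks and 26.5% of the cKO peaks had less than 90% unique words within 500 bp of the center, against 7.65% and 7.41% of the other autosomal peaks.

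Before mapping was taken into account, the deficit was seen in the 3 large families. No ratio by family was computed per uniquely mapping Mb, although unique words were fewest around *Vmn1r* (59.8%) and *Vmn2r* genes (62.4%). Whether the deficit of each family remains with GC content and mapping together was not tested. In *Hells* CTRL, *Olfr* regions held 60 peaks at 2.03 per Mb, a ratio to other sequence of 0.462 (0.352 to 0.595). *Vmn1r* regions held 14 CTRL peaks at 1.58 per Mb, a ratio of 0.358 (0.196 to 0.602), and *Vmn2r* regions held 14 at 1.17 per Mb, a ratio of 0.266 (0.146 to 0.447). Most of the *Vmn2r* CTRL peaks lay in repeated sequence, with 0 to 29.2% unique words within 500 bp, against 78.1 to 100% at the others. The sequences at the centers of some of them were near copies of each other. Peaks in copies of a repeat may not be separate sites, which the counting interval does not take into account. In *Hells* cKO the ratios of the 3 families were 0.289 for *Olfr* with 59 peaks, 0.277 for *Vmn1r* with 17 peaks and 0.278 for *Vmn2r* with 23 peaks. At equal GC content the cKO ratios were 0.486 (0.370 to 0.628) for *Olfr*, 0.361 (0.210 to 0.578) for *Vmn1r* and 0.589 (0.373 to 0.884) for *Vmn2r*, and the CTRL ratios 0.556, 0.382 and 0.343 in the same order. A peak near genes of more than 1 family was counted in each. The single *Taar* cluster, *Taar1* to *Taar9* with 16 genes (chr10:23900356-24129534), held no peak of either list, but at the density of other sequence only 1.01 CTRL and 1.59 cKO peaks would have fallen in its 0.229 Mb, so that a deficit was not detectable there.

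The lists differed in the large clusters. The 50 regions with 10 or more receptor genes carried 1227 of the genes on 23.4 Mb. They held 35 *Hells* CTRL peaks, 1.49 per Mb, but 19 *Hells* cKO peaks, 0.811 per Mb. The ratios to other sequence were 0.340 (0.237 to 0.473) and 0.117 (0.0706 to 0.183), and the cKO ratio was 0.345 times the CTRL ratio (0.186 to 0.620). At equal GC content this factor was 0.541, and its interval of 0.292 to 0.971 still lay below 1. In the 157 regions with a single receptor gene the cKO list held more peaks, 34 against 18, and the ratios to other sequence were 0.592 for cKO and 0.493 for CTRL. At equal GC content the ratio of the single-gene regions was 0.852 for cKO, with an interval of 0.590 to 1.19 that included 1, and 0.553 (0.328 to 0.873) for CTRL. The 152 regions with 2 to 9 genes lay between these classes for both lists, with 35 CTRL peaks and 45 cKO peaks.

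**Figure D1:**
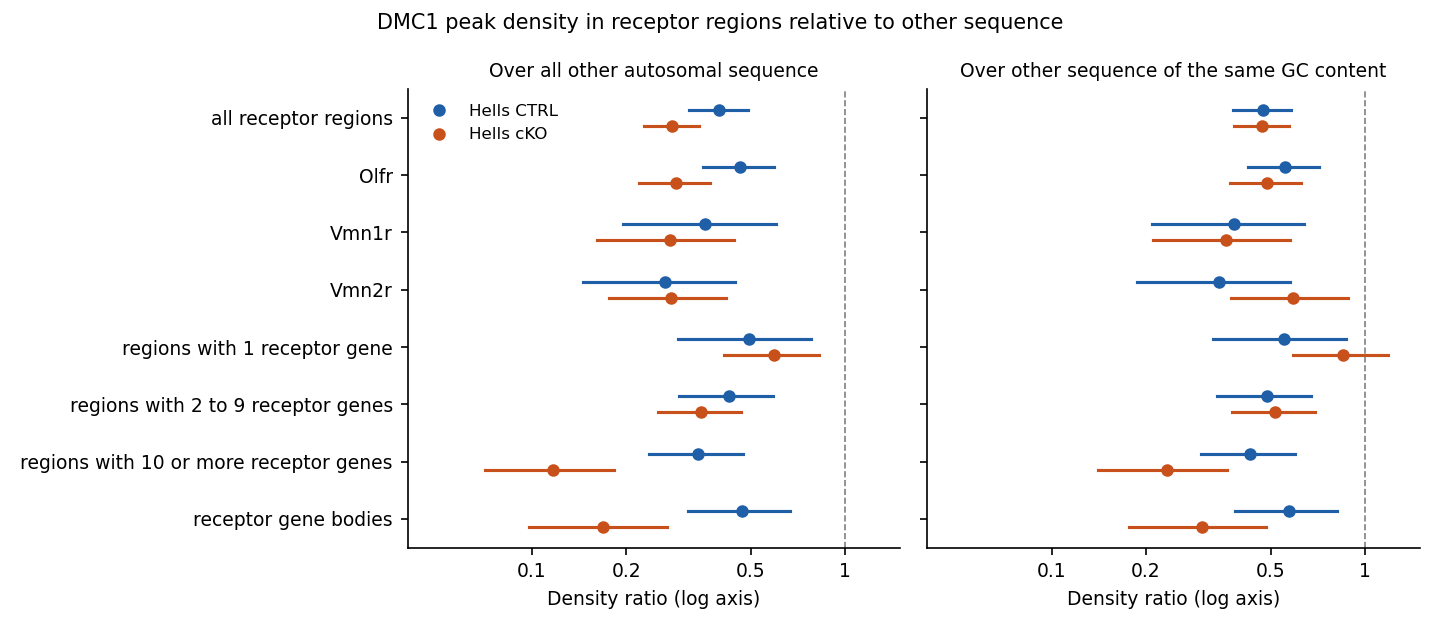
Density of DMC1 peak centers in receptor regions divided by that in other autosomal sequence (log axis), for all other sequence on the left and for other sequence of the same GC content on the right. Points are ratios and lines are 95% intervals for counting error, blue for *Hells* CTRL and orange for *Hells* cKO. The dashed line at 1 marks equal density, and the orange point at 0.117 marks the cKO list in regions with 10 or more receptor genes.

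The 2 lists also differed in where within a region their peaks lay. Receptor gene bodies, 14.6 Mb in all, held 30 of the CTRL peaks and 17 of the cKO peaks, which was 2.06 and 1.17 per Mb. The surrounding 20 kb, 35.9 Mb, held 58 CTRL peaks at 1.62 per Mb and 81 cKO peaks at 2.26 per Mb. In gene bodies the cKO ratio was 0.360 times the CTRL ratio (0.186 to 0.675), and 0.529 times (0.274 to 0.990) at equal GC content. Outside gene bodies this factor was 0.887 (0.625 to 1.27).

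Beyond the 20 kb limit both lists rose, at different distances. From 20 to 50 kb from a receptor gene the CTRL density was still 1.90 per Mb (1.23 to 2.81), and from 50 to 100 kb it was 4.66 (3.59 to 5.95), within counting error of the 4.42 beyond 500 kb. The cKO density was already 7.30 (5.91 to 8.92) from 20 to 50 kb. From 100 to 200 kb it was 10 (8.70 to 11.4), above the 6.81 (6.70 to 6.92) beyond 500 kb. The densities by distance were not matched for GC content or mapping.

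**Figure D2:**
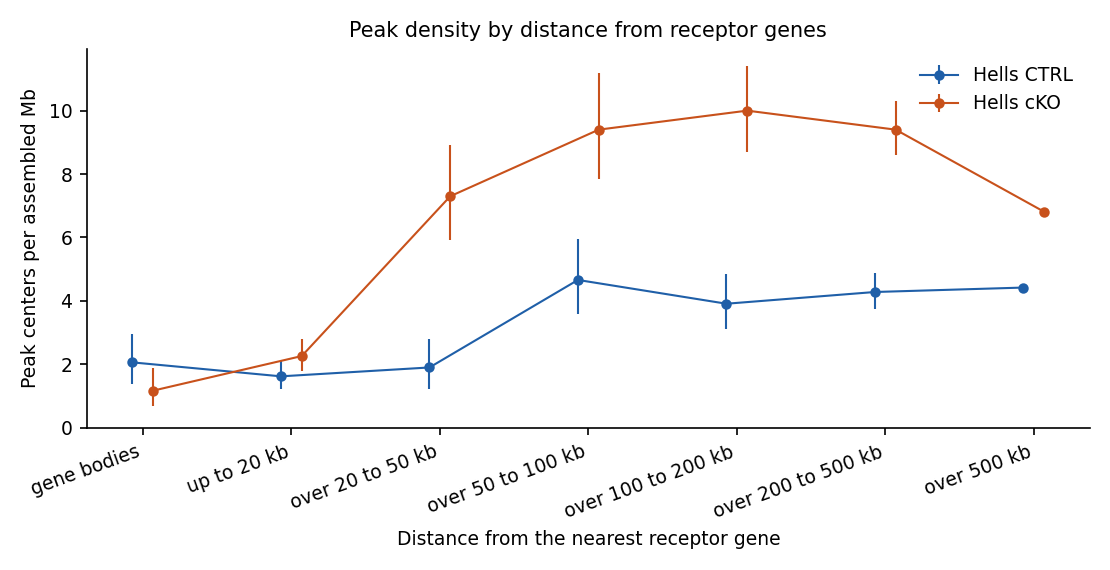
Peak centers per assembled Mb (vertical axis) by distance from the nearest receptor gene (horizontal axis), with 95% intervals for counting error. Densities are not matched for GC content or mapping. Both lists are low in gene bodies and up to 20 kb. The cKO list reaches 7.30 per Mb from 20 to 50 kb, where the CTRL list is at 1.90.

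Most receptor sequence lay in regions without a peak, but many regions were short. A region of the median length, 79.0 kb, would have held 0.347 CTRL and 0.547 cKO peaks at the density of other sequence. The number of empty regions expected from length alone was not computed. No peak of either list was found in 249 of the 359 regions, which made up 28.7 Mb, 56.9% of the receptor sequence, and carried 994 genes. CTRL peaks occurred in 71 regions and cKO peaks in 70, of which 31 had both. In windows of 1 Mb that were mostly receptor regions (n = 40) the median was 1.5 CTRL peaks and 1.00 cKO peaks, and 11 windows (27.5%) had no CTRL peak and 17 (42.5%) no cKO peak. The 734 windows with no receptor region and a GC content below 40% had medians of 3.00 and 2.00, and 6.95% and 17% of them had none.

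The 10 longest regions, all *Olfr* clusters, carried 565 genes on 9.80 Mb. They held 16 CTRL peaks and 6 cKO peaks, where 43.1 and 67.8 would have fallen at the density of other sequence. The longest cluster, *Olfr996* to *Olfr1126* (chr2:85559215-87478911, 129 genes), held 2 CTRL peaks and 1 cKO peak, against 8.44 and 13.3 at that density. The counts at the density of other sequence, here and below, were not matched for GC content. It was 36.3 to 39.7% in the 10 regions. For the 50 regions with 10 or more genes, the counts at equal GC content were 81.3 for CTRL and 81.6 for cKO. Those regions held 35 and 19 peaks. The next clusters on chromosome 2, *Olfr1127-ps1* to *Olfr1177-ps* (chr2:87503482-88366492) and *Olfr1178* to *Olfr1226* (chr2:88367062-89220048), held 2 and 3 CTRL peaks and 1 cKO peak each. The cKO peak of the former, of strength 92, lay 69 bp from the start of the predicted gene *Gm13736*. On chromosome 9, *Olfr920* to *Olfr981* (chr9:38732299-40050377) held 2 CTRL peaks and 1 cKO peak, and *Olfr877* to *Olfr919* (chr9:37834269-38723673, 46 genes) held none of either list.

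No peak of either list lay in *Olfr467* to *Olfr497* (chr7:107792263-108444911) or in *Olfr90* to *Olfr126* (chr17:37063871-37872057, 44 genes), a cluster for which 3.55 CTRL and 5.59 cKO peaks would have been counted at the density of other sequence. *Olfr774* to *Olfr827* (chr10:129216204-130234403) held 2 CTRL peaks and no cKO peak. *Olfr1464-ps1* to *Olfr1505* (chr19:13262134-13941866) held 3 and none. *Olfr543* to *Olfr595-ps1* (chr7:102456579-103256585) was the only one of the 10 with more than 1 cKO peak. It held 2 of each list, and its cKO peaks lay 10 bp from the start site of *Trim68*, of the tripartite motif family, and in the coding exon of *Olfr545*.

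The regions with the most peaks of the 2 lists were of different kinds. For *Hells* CTRL the highest number was 3, in the *Olfr1178* and *Olfr1464-ps1* clusters above and in *Olfr66* to *Olfr650-ps1* (chr7:103859443-104227865, 23 genes). Among the regions with 2 were *Olfr372* to *Olfr374* (chr8:72021218-72138200) and *Olfr285* to *Olfr283* (chr15:98289203-98400946), with 2 each and 1 cKO peak each. The cKO peaks of the *Olfr66* and *Olfr372* regions lay 113 bp and 600 bp from the start sites of *Trim6*, an E3 ubiquitin ligase gene, and *Tpm4*, a tropomyosin gene.

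For *Hells* cKO the highest number was 5, in 2 short regions without a CTRL peak. The region of the single gene *Olfr750* (chr14:51046301-51094435), with a GC content of 45.1%, held cKO peaks of strength 32, 76, 43, 14 and 113. All 5 had 21 to 35 CpG within 250 bp, and the strongest lay 908 bp from the start site of *Rnase4*, a secreted ribonuclease gene. The 5 peaks in the region of *Vmn2r-ps159* and *Vmn2r125* (chr4:156311103-156375905) had strengths of 210, 103, 64, 55 and 22 and were of another kind, with only 1 to 5 CpG within 250 bp and no other start site nearby. They lay at the distal end of the assembled chromosome 4, whose last assembled base is 156358116.

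Among the regions with fewer cKO peaks, the next was *Vmn2r-ps110* to *Vmn2r89* (chr14:51357284-51484172) with 4 and no CTRL peak. Several regions had 3, among them those of *Olfr221* (chr14:52013962-52062459), with no CTRL peak, and of *Olfr1417* to *Olfr1420* (chr19:11806803-11918079), with 1 CTRL peak. In the *Olfr221* region a peak of strength 52 lay 116 bp from the start site of the zinc finger gene *Zfp219*. In the *Olfr1417* region a peak of strength 41 lay 19 bp from that of *Stx3*, which encodes the membrane fusion protein syntaxin 3.

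The deficit was spread over the chromosomes. Receptor density was below that of other sequence on 16 of the 19 autosomes in each list. These include chromosomes 12 and 18, without a peak in 0.0406 and 0.123 Mb, too little for a deficit to be detectable. The ratios by autosome were not matched for GC content or mapping. Among the 14 autosomes with at least 1 Mb of receptor regions, it was lower on 13 in *Hells* CTRL, with ratios of 0.134 to 1.03 and a median of 0.334, and on 12 in *Hells* cKO, with ratios of 0 to 1.75 and a median of 0.262. Chromosome 7, with 14.5 Mb of receptor regions, had ratios of 0.252 and 0.138, and chromosome 17 had 0.134 and 0.0733. The cKO ratio was above 1 on chromosome 4 (1.66, 12 peaks) and chromosome 14 (1.75, 16 peaks), which hold the peak-rich regions named above, and on chromosome 15 (2.25, 5 peaks in 0.312 Mb). Without any single autosome, the overall ratio stayed at 0.365 to 0.460 for CTRL and 0.241 to 0.340 for cKO.

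**Figure D3:**
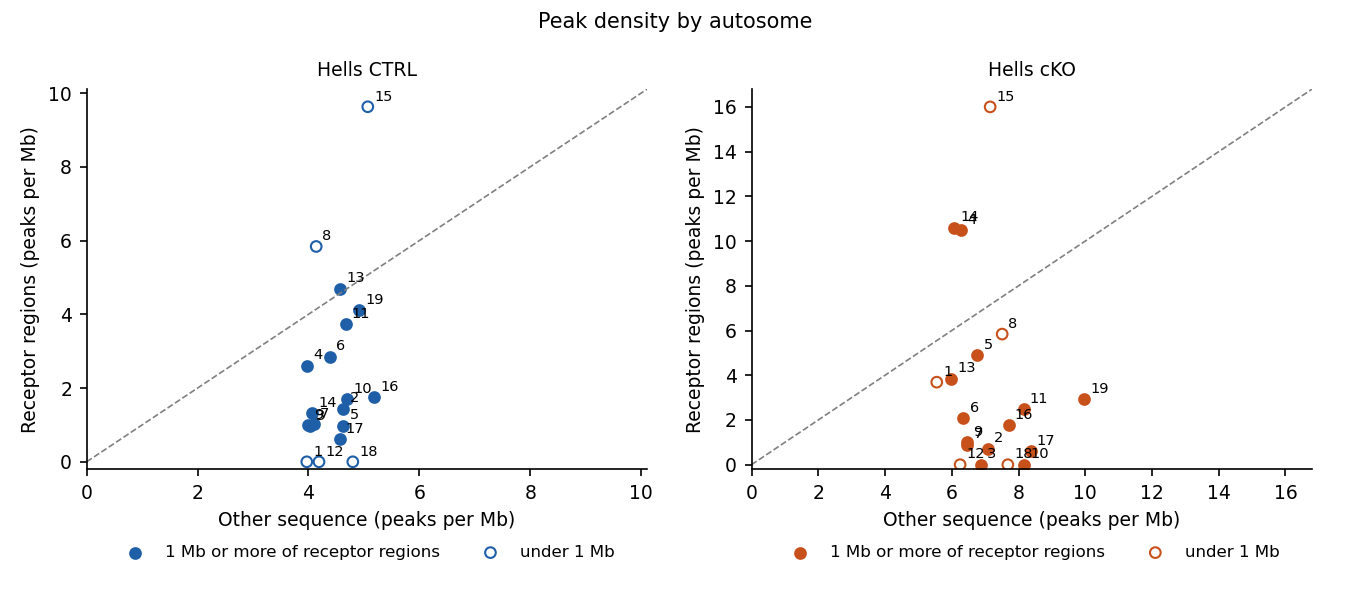
Peaks per assembled Mb in receptor regions (vertical axis) against other sequence of the same autosome (horizontal axis), with *Hells* CTRL on the left and *Hells* cKO on the right. Numbers name the autosomes, open points have under 1 Mb of receptor regions and the dashed line marks equal density. In each panel 16 of 19 points lie below the line.

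The peaks called in receptor regions had median ranks close to the middle of their list. Strength is the deposited DMC1 signal at a peak, and since the scales of the genotypes cannot be set against each other, each peak was ranked within its own list. *Hells* CTRL members had a median strength of 59 (quartiles 34.8 and 130, range 14 to 1350) against 63 (32 and 152) for the other autosomal peaks, and their median percentile was 47.9 against 50.2. *Hells* cKO members had a median of 31 (18 and 52, range 7 to 210) against 30 (18 and 61), with a median percentile of 50.8 against 49.3. For the cKO members centered in receptor genes alone the median percentile was lower, 25.5. The families varied around these values, from a median percentile of 43.1 for the 14 *Vmn2r* peaks to 71.4 for the 14 *Vmn1r* peaks in CTRL, and from 44.6 for 59 *Olfr* peaks to 63.8 for 17 *Vmn1r* peaks in cKO. In the strongest 10th of the list were 5 CTRL members (5.68%, 1.87 to 12.8) and 6 cKO members (6.12%, 2.28 to 12.9), against 10.1% of the other peaks in both lists.

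The 5 strongest CTRL members lay by or in receptor genes. The strongest, of strength 1350, was centered in an untranslated region of *Vmn1r184* (chr7:26267204-26269133), at the 99.6th percentile. The peak of strength 864 lay 4067 bp from *Olfr267* (chr4:58790793-58792772), and the peak of strength 639 lay in an intron of *Vmn1r73* (chr7:11733521-11735608). Strength was 458 at the peak 301 bp from *Olfr24* (chr9:18763236-18765357) and 336 in an untranslated region of *Olfr523* (chr7:140177661-140179558). All 5 had 0 to 7 CpG within 250 bp. The shorter sequences of 201 bases shown above for *Olfr267*, *Vmn1r73* and *Olfr24* held 2, 1 and 0 CpG.

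Of the 5 strongest cKO members, 3 lay at start sites of genes that are not receptors. The strongest, of strength 210 (97.5th percentile), was the intergenic peak near *Vmn2r-ps159* (chr4:156312718-156315887) whose sequence is AT-rich above. Strength was 177 at the peak 59 bp from the start of *Mad2l1* (chr6:66534555-66536498), which encodes the spindle checkpoint protein MAD2, in the neighbourhood of *Vmn1r32*. It was 160 at the peak 66 bp from the start of *Spryd7* (chr14:61555438-61557945), near *Vmn1r-ps136*, and 149 at the peak 298 bp from the start of *Patl1* (chr19:11911436-11914045), which encodes an mRNA decay factor, near *Olfr1420*. The peak of strength 158 near *Olfr1421-ps1* (chr19:12009519-12012080) was intergenic and had 21 CpG. Chosen after their values were seen, the members of rank 8 and 9 lay near the starts of genes needed for meiotic crossing over. They lay 69 bp from that of *Hfm1* (strength 108) and 56 bp from that of *Rnf212* (strength 106). A cKO peak lay at the start of 34.7% of the other protein-coding genes with a start site in receptor regions. An excess of meiotic genes was not tested.

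**Figure D4:**
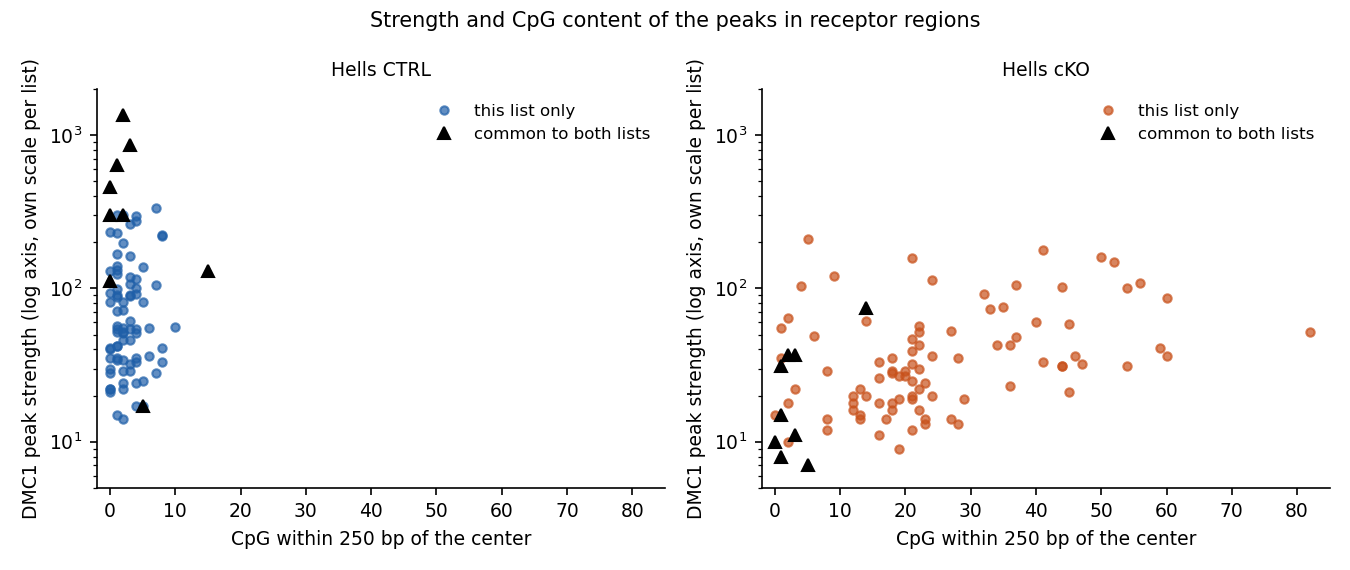
Strength (vertical log axis, own scale for each list) against CpG within 250 bp of the center (horizontal axis) for the 88 *Hells* CTRL members on the left and the 98 *Hells* cKO members on the right. Triangles are the 9 peaks common to both lists. CTRL members have at most 15 CpG, while cKO members reach 82 and include a group of low CpG content to which 8 of the common peaks belong.

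CpG content was higher in the cKO members than in the CTRL members, with overlapping ranges. CTRL members had a median of 2.00 CpG within 250 bp (0 to 15), and other CTRL peaks 4.00. cKO members had a median of 21 (0 to 82), and other cKO peaks 25. None of the 88 CTRL members had 20 or more CpG, which allows a share of up to 4.11% and is within counting error of the 0.883% of other CTRL peaks. In the cKO list it was 54 of 98 cKO members (55.1%, 44.7 to 65.2) and 58.1% of other cKO peaks. Windows of 500 bp with 20 or more CpG made up 0.733% of receptor sequence and 1.13% of other sequence.

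Transcription start sites, taken from all GENCODE transcripts, were then compared. Of the 98 cKO members, 64 (65.3%, 55 to 74.6) had a start site within 1 kb, close to the 61.3% of other cKO peaks. Of the 88 CTRL members, 16 (18.2%, 10.8 to 27.8) had one, against 7.02% of other CTRL peaks. The CTRL share fell to 9.09% with a reach of 500 bp and also with protein-coding genes only, settings for which the share of other peaks was not computed. In the cKO list the start site belonged to another gene for 51 members (52%) and to a receptor gene for 14, with *Vmn1r4* and *Nt5c3* counted in both. In the CTRL list it belonged to another gene for 6 members and to a receptor gene for 11. Receptor regions had 92.5 start sites per Mb against 51.7 elsewhere, but only 19.1 per Mb belonged to other genes.

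Counted by gene, few receptor genes had a peak at their start. A cKO peak lay within 1 kb of a start site in 13 of 1472 protein-coding receptor genes (0.883%, 0.471 to 1.51). The share was 52 of 150 (34.7%, 27.1 to 42.9) for the other protein-coding genes with a start site in receptor regions, and 9413 of 19185 (49.1%) for those elsewhere. For CTRL the corresponding counts were 7 of 1472 (0.476%), 2 of 150 (1.33%) and 466 of 19185 (2.43%). By family, a cKO peak lay at the start of 11 of 1399 *Olfr* genes, 1 of 326 *Vmn1r* genes, 2 of 235 *Vmn2r* genes and 0 of 16 *Taar* genes, pseudogenes included.

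The CpG content within 1 kb of the start sites, which takes in nearby coding exons, differed in the same order. From 250 bp before to 50 bp after the start, receptor promoters (n = 1271) had a median of 1.00 CpG. Other promoters (n = 24477) had 8.00. The shares with 10 or more CpG were 0.236% and 46.8%. The most CpG in any 500 bp within 1 kb of a start site had a median of 5.00 in protein-coding receptor genes (quartiles 4.00 and 8.00), 19.5 in the other protein-coding genes of the receptor regions and 41 in all protein-coding genes that are not receptors. Among receptor genes the share with a cKO peak was 0 of 471 with 0 to 4 CpG, which allows up to 0.780%, 2 of 803 with 5 to 9, 1 of 128 with 10 to 14, 4 of 44 with 15 to 19 (9.09%, 2.53 to 21.7) and 6 of 26 with 20 or more (23.1%, 8.97 to 43.6). In other protein-coding genes with 15 to 19 CpG the share was 15.9% (13.9 to 18.1), within counting error of that of the receptor genes. With 20 or more it was 64.9% (64.1 to 65.7), above that of receptor genes, in a class that for other genes reached 109 CpG and for receptor genes 62. CTRL peaks lay at 1 of 471, 3 of 803, 2 of 128, 0 of 44 and 1 of 26 receptor genes of these classes. In other protein-coding genes the CTRL shares were 0.188%, 0.508%, 1.43%, 1.79% and 2.91%, each within the interval of the receptor genes.

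**Figure D5:**
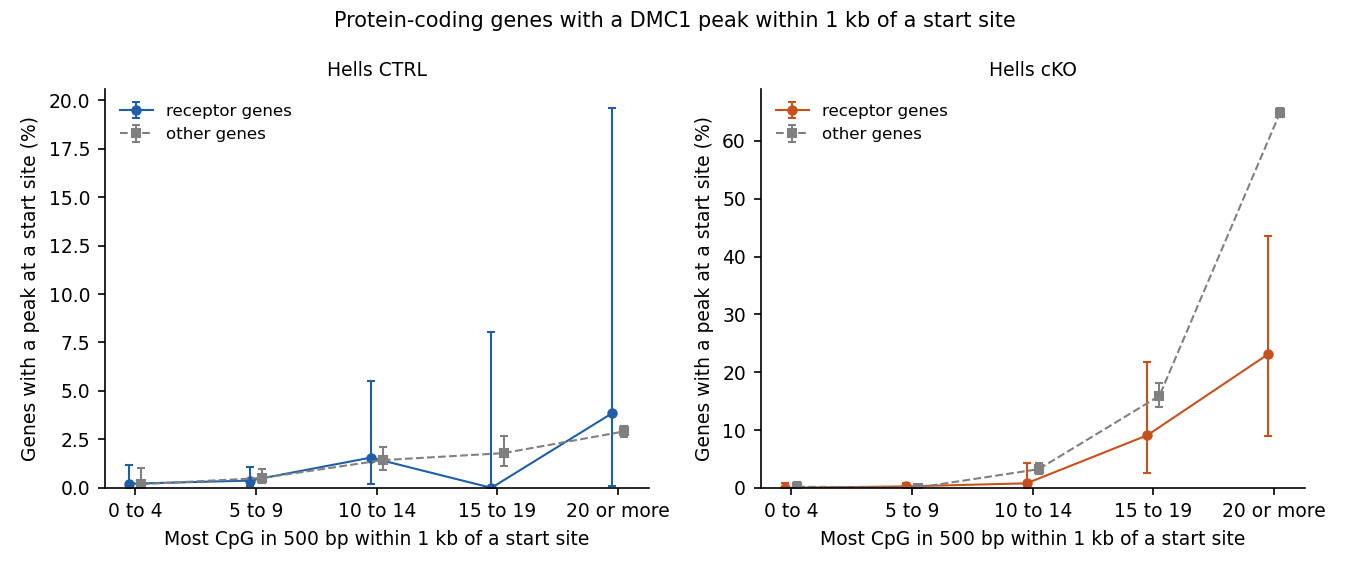
Share of protein-coding genes with a DMC1 peak within 1 kb of a start site (vertical axis, percent, with exact 95% intervals) by the most CpG in 500 bp within 1 kb of a start site (horizontal axis), for *Hells* CTRL on the left and *Hells* cKO on the right, each with its own vertical scale. Coloured circles are receptor genes and grey squares all other genes. With 20 or more CpG the cKO share was 23.1% for receptor genes and 64.9% for other genes.

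The cKO peaks at receptor starts were mostly weak. The 13 with only a receptor start site within 1 kb had a median strength of 20, at a median percentile of 30.5, and a median of 13 CpG (1 to 23). The 5 strongest at any receptor start were those of *Vmn1r4* (strength 86, chr6:56922664-56924867), *Vmn2r-ps159* (64), *Vmn2r125* (55), *Olfr750* (43) and *Olfr281* (39). The *Vmn1r4* peak lay 249 bp from the receptor start and 42 bp from the start of *Nt5c3*, a nucleotidase gene, and had 60 CpG, so that it cannot be assigned to either gene.

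Olfactory receptor genes carry their coding sequence in a single exon, and 10 cKO members were centered in it. Besides *Olfr750* (22 CpG within 250 bp) and *Olfr281* (21 CpG), these were, named after their values were seen, *Olfr279* (strength 24, 23 CpG), *Olfr315* (22, 13 CpG), *Olfr214* (20, 12 CpG), *Olfr282* (18, 18 CpG), *Olfr48* (16, 12 CpG), *Olfr15* (15, 13 CpG), *Olfr1395* (14, 13 CpG) and *Olfr545* (12, 8 CpG). All 10 lay within 1 kb of the annotated start site. None had a CTRL peak within the center windows used below for common peaks, but the interval at *Olfr1395* overlapped a CTRL peak (chr11:49149039-49150646). The sequences of *Olfr281* and *Olfr279* above show CpG spread along the coding exon. *Olfr279*, *Olfr281* and *Olfr282* lie in the same region on chromosome 15. In the CTRL list 1 member was centered in a coding exon of a receptor gene, *Olfr465-ps1*, annotated as protein-coding despite its symbol, with strength 15 and 1 CpG.

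The deficit of cKO peaks was not limited to start sites. Peaks with no start site within 1 kb had a density of 0.674 per Mb in receptor regions against 2.67 elsewhere, a ratio of 0.252 (0.174 to 0.352), and peaks with a start site had a ratio of 0.299 (0.230 to 0.382). For CTRL, peaks with no start site had a ratio of 0.349 (0.273 to 0.440), and those with a start site 1.03 (0.584 to 1.68). The ratios of both lists for peaks with a start site include receptor start sites, which exist in receptor regions only. For start sites of other genes the ratio was 0.385 (0.141 to 0.842) in CTRL and 0.238 (0.177 to 0.313) in cKO. These ratios are per Mb of sequence and do not take into account how many such start sites there were. Receptor regions had 19.1 start sites of other genes per Mb against 51.7 elsewhere. A density ratio per start site was not computed.

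The enriched words were present at receptor peaks of the CTRL list. A word lay within 100 bp of the center of 26 of the 88 CTRL members (29.5%, 20.3 to 40.2), against 3.41% in windows 1000 bp away and 5.70% of 201-bp windows across receptor regions. The other CTRL peaks, from which the words were learned, had 36.7%, with 8.30% at 1000 bp and 7.84% of windows across other sequence. Of the cKO members 13.3% (7.26 to 21.6) had a word, against 14% of other cKO peaks. The CTRL deficit was seen for peaks with a word, at a density ratio of 0.319 (0.208 to 0.469), and without, at 0.441 (0.338 to 0.567). Among the sequences shown, those of *Olfr267* and *Vmn1r90* hold a word and those of *Vmn1r73* and *Olfr24* hold none.

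To see which sites were used in both genotypes, peaks were called common where the windows reaching 200 bp to the left and right of their centers overlapped. Of the members 9 were common, 10.2% (4.78 to 18.5) of the CTRL members, where the share among all autosomal CTRL peaks was 8.44%, and 9.18% (4.29 to 16.7) of the cKO members, where it was 5.38%. By the deposited numbers alone, the CTRL value exceeded the cKO value by more than 1 on the log2 scale for 8 of the 9, in an autosomal background of 86.7% of common peaks, and the cKO value the CTRL value for none, in a background of 7.29%. As the scales were not normalized to each other, these counts give no direction between the genotypes. The medians of the 9 were 303 in CTRL and 15 in cKO, each on its own scale.

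At *Vmn1r184* the strength was 1350 in CTRL and 37 in cKO, and at *Olfr267* it was 864 and 37. *Vmn1r73* had 639 and 31, and *Olfr24* had 458 and 15. These 4 were also the 4 strongest CTRL members, and their cKO peaks lay between percentiles 17.1 and 58.1 of that list. Strong CTRL peaks elsewhere were often common too. In the strongest 10th of the CTRL list, 4 of 5 members and 632 of 1037 other peaks (60.9%) were common. *Olfr1120* (chr2:87358132-87359931) had 303 and 10, *Vmn1r197* (chr13:22332493-22334232) had 302 and 11, and *Olfr1200* (chr2:88763028-88764603) had 112 and 8. The weakest was the peak 13879 bp from *Olfr58* (chr9:19765947-19766860), with 17 and 7, where 46.9% of words were unique. Each of these 8 had a higher percentile in the CTRL list than in the cKO list.

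The peak near *Vmn1r-ps2* (chr4:3088883-3091694) had strengths of 129 and 74, and its percentile was 71.1 in the CTRL list and 79.8 in the cKO list. It lay 13470 bp from the gene and close to the first assembled base of chromosome 4, 3050001. The 201 bases around its center held similar, not identical, copies of a repeat in tandem. Within 500 bp 100% of words occurred once in the assembled genome, but copies in unassembled sequence could not be counted. It had the most CpG of all CTRL members, 15 within 250 bp.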

How the data were processed

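DMC1 ChIP-SSDS data of *Hells* CTRL and *Hells* cKO testes were analysed, with 4 libraries in 2 merged lists. Per the methods of the authors, reads were cut to 50 bp, filtered at a Phred score of 28, placed on GRCm38/mm10 and kept where unique and not duplicated, and they called peaks with MACS 2.0.10 per replicate and on pooled reads. The deposited value per peak is a strength score, a whole number. The authors corrected fragment counts for local background, scaled them by library size, and state that no normalization between the genotypes was possible. Read depth is not in these lists and is unknown here, so that a site without a peak is a site below detection. The 5hMeDIP libraries and the X chromosome were not analysed here. The members and the gene families were chosen with earlier results of these data known.

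Genes, start sites and sequence came from GENCODE M21 and GRCm38.p6. Densities used assembled bases of the 19 autosomes. Density ratios have exact binomial intervals, shares have exact Clopper-Pearson intervals, and intervals at equal GC content take the density of other sequence as free of error. Words of 8 bases were ranked by their count within 100 bp of the center over that 1000 bp away, and the top 20 were kept. Density steps were tested on simulated data. Tools were scipy 1.17.1 and numba 0.67.0 for the computations and numpy 2.4.6 with pandas 2.3.3 for the tables, in Python 3.11.15.

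Named were the 10 longest regions, the *Taar* region, the 5 regions with the most peaks of each list, the 5 strongest members of each list, the 5 strongest cKO members at receptor starts, all common members, and non-receptor genes at named peaks or, up to 5 of them, with a cKO peak at their start in a named region. Of regions tied in number the shorter were taken first. *Trim68*, *Tpm4* and *Stx3* were named in addition, after their values were seen. Values by CpG class, by GC-weighted class and with GC content and mapping together were added after the values had been seen.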

Additional observations from a re-analysis of the deposited data

How the results depend on the processing

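No paired analysis was possible because the replicates were merged into 1 list per genotype, and for the same reason no replicate could be left out. The alternatives moved no density ratio across 1. Of 78 recomputed values, 65 stayed within the counting interval of the reported value and 13 moved beyond it. The density ratio became 0.519 (CTRL) and 0.605 (cKO) with a reach of 100 kb and 0.170 (cKO) with gene bodies only. It became 0.470 (cKO) at equal GC content, and 0.560 (CTRL) and 0.558 (cKO) with GC content and mapping together. The cKO median percentile was 25.5 with gene bodies only. The share of CTRL members with a partner was 18.6% among peaks at or above the median strength. The share with a start site was 9.09% (CTRL) with a reach of 500 bp, and 9.09% (CTRL) and 52.0% (cKO) with protein-coding genes only. The share with a word within 250 bp was 51.1% (CTRL) and 25.5% (cKO), over a longer window. The cause of these changes was not tested except where the setting itself takes in other sequence. With 88 and 98 peaks, ratios in classes of under 20 peaks have wide intervals.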
